A study of Homo sapiens with 17 samples.

Results

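The arrays described here compare a knockdown of the kinase JAK3 with a knockdown of the methyltransferase EZH2, gene by gene, in NKYS, a human cell line derived from an NK/T-cell lymphoma. They are the 8 arrays of the study whose labels name an siRNA, out of 17 in all. JAK3 siRNA was used on 2 arrays and a control siRNA named for the JAK3 knockdown on 2. EZH2 siRNA was used on 2 arrays, and each of these has a control siRNA array of its own, so that the EZH2 arm holds 2 named pairs. In all 4 groups the cells were kept in RPMI medium with fetal bovine serum and 100 IU/mL of recombinant human interleukin-2, and the siRNA was brought in by electroporation. Neither the harvest time nor the siRNA sequences are given in the sources used here. Nothing in the labels ties replicate arrays to separate cultures, so p-values measure only how far these arrays spread, and that spread may be technical. The 2 arms have different control arrays, so that a difference between the knockdowns cannot be told apart from anything else that differed between the arms.

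JAK3 is a tyrosine kinase bound to the common gamma chain, the receptor subunit shared by interleukin-2 and related cytokines. When interleukin-2 binds, JAK1 and JAK3 phosphorylate the transcription factor STAT5, which enters the nucleus and switches on feedback inhibitors such as CISH and SOCS1 together with survival and growth genes. EZH2 is the catalytic subunit of Polycomb repressive complex 2, which methylates lysine 27 of histone H3 at silenced genes. JAK3 is also known to phosphorylate EZH2 in NK/T-cell lymphoma, which is the setting in which both were manipulated here. The comparison asks which transcripts moved with both knockdowns, which moved with only 1, and which moved in opposite directions.

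Each value is a linear signal intensity, and each effect is a difference of log2 signals. The JAK3 effect is the mean of the JAK3 siRNA arrays minus the mean of their controls, and the EZH2 effect is the mean of the 2 within-pair differences. A limma fit of the 8 arrays gave both effects and the difference between them for 14466 genes, with a call at an adjusted p under 0.05. Genes were then sorted by these calls. Shared genes were called in both arms in the same direction, and opposed genes in both arms in opposite directions. One-sided genes were called in 1 arm and in the difference between the arms, but not in the other arm. A gene called in 1 arm whose difference was not called is undetermined, because a miss in the other arm does not show that it failed to respond.

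Median signals of the 8 arrays over all probe sets lay between 60.28 and 62.46. Any pair of arrays correlated over the same probe sets with r from 0.9934 to 0.9982. Of 10 NK cell markers, 9 were above the filter on dim genes and GZMA was not. The T cell genes CD3D, CD3E, CD3G and CD28, the B cell genes MS4A1 and CR2, the monocyte genes LYZ, S100A8 and VCAN, and the epithelial and fibroblast genes EPCAM, DCN and LUM were not above it. Most measured markers of these lists were above it, with 5 of 9 for T cells and 6 of 8 for B cells. For monocytes it was 5 of 8, and for epithelium and fibroblasts 8 of 11. The filter therefore does not separate NK markers from the others. In a bulk sample, fewer cells of a type and less RNA per cell cannot be told apart. The first EZH2 pair stood apart. Its single difference had an SD of 0.2095 over genes on the log2 scale, against 0.1342 in the second pair and 0.1461 and 0.1459 for the JAK3 siRNA arrays. It reached a size of 0.3 in 1853 genes, against 410, 613 and 595. The EZH2 arm is also where the summed signal of the 10 NK markers spread most, from 7049 to 10270 in its controls, against 10820 to 11120 with EZH2 siRNA, 9099 to 9165 in the JAK3-arm controls and 9232 to 9353 with JAK3 siRNA. The part of this spread in the results below was not tested.

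Both targeted transcripts were lower where they should be. JAK3 gave signals of 138.1 and 136.7 with JAK3 siRNA and 322.5 and 326.3 in its controls, a 2.36-fold fall (log2 effect -1.24 ± 0.07 SE, adjusted p = 5.7e-06 by limma). In the EZH2 arm JAK3 read 367.5 and 352 with EZH2 siRNA and 339.9 and 309.7 in the controls, an effect of 0.15 with a 95% interval of -0.00168 to 0.299. JAK3 itself is thus a one-sided gene, with a difference between arms of -1.39 (adjusted p = 8.68e-05). EZH2 gave 500.9 and 488.7 with EZH2 siRNA against 926.3 and 690.8 in the named controls, a 1.62-fold fall (log2 effect -0.69 ± 0.09 SE, adjusted p = 0.0275). With JAK3 siRNA the EZH2 signals were 776.4 and 763.4 against 890.8 and 871.1, without overlap, as in 48.3% of all genes, but the effect of -0.19 did not pass (adjusted p = 0.40) and neither did the difference between arms of 0.50 (adjusted p = 0.159). The effects compared below therefore come from knockdowns whose measured falls were unequal. The fall of EZH2 was no longer called without either array of the first pair, where it was -0.50 (adjusted p = 0.182), nor without any 1 array of the JAK3 arm (adjusted p 0.0574 to 0.0813).

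JAK3 siRNA changed 200 genes, 1.38% of those tested, with 90 higher (0.622%) and 110 lower (0.76%). EZH2 siRNA changed 136 genes (0.94%), 54 higher (0.373%) and 82 lower (0.567%). The 2 knockdowns had 13 called genes in common, which is 6.5% of the JAK3 calls and 9.56% of the EZH2 calls. Of these 13, 10 moved the same way and 3 moved in opposite ways. The difference between the arms was called for 53 genes (0.366%), of which 33 were lower after JAK3 siRNA relative to EZH2 siRNA (0.228%) and 20 were higher (0.138%). These 53 hold the 3 opposed genes, 39 one-sided JAK3 genes, 7 one-sided EZH2 genes and 4 genes called in the difference alone. The largest part of the calls, 148 JAK3 genes and 116 EZH2 genes, is undetermined.

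**Figure D1:**
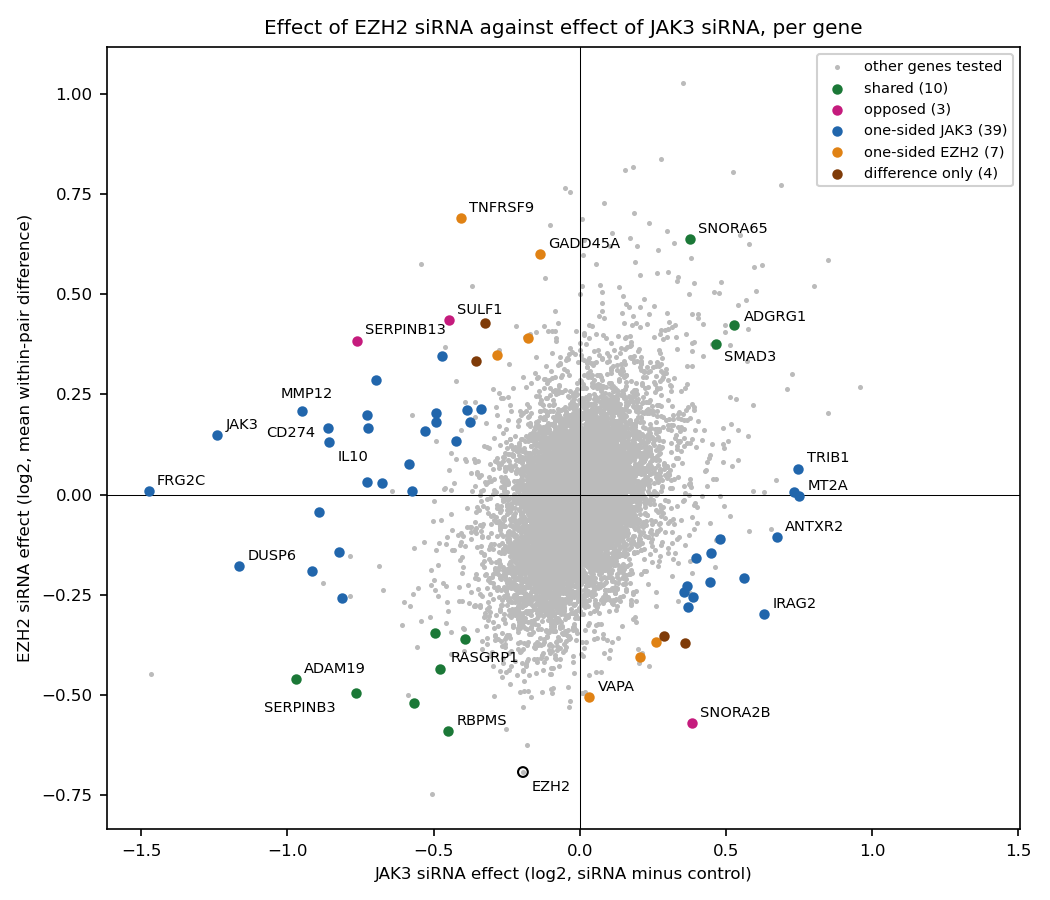
The JAK3 siRNA effect (x axis) is plotted against the EZH2 siRNA effect (y axis), both as log2 siRNA minus control, with 1 point per gene and colours for the response classes. One-sided JAK3 genes such as CD274 and IL10 lie along the horizontal axis, shared genes such as ADAM19 lie at the lower left and upper right, and the 3 opposed genes lie at the upper left and lower right.

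Across the 14466 genes the effects correlated with r = 0.3304 (Spearman's rho 0.2908), and 58.8% of genes had the same sign in both arms. Genes are not independent replicates, and the arrays of an arm enter every gene. The likeness came mainly from the first EZH2 pair. The 2 JAK3 single differences correlated with it at r = 0.3253 and 0.3235, and with the second EZH2 pair at 0.09808 and 0.0554. The 2 EZH2 pairs correlated with each other at 0.1692, less than either JAK3 difference with the first pair, whereas the 2 JAK3 differences correlated at 0.5714. The JAK3 numbers name no pairing, so these single JAK3 differences depend on the numbering. With the numbers crossed, the 2 JAK3 differences correlated at 0.4615. They then correlated at 0.3506 and 0.2782 with the first EZH2 pair and at -0.04262 and 0.1817 with the second.

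The 10 shared genes were ADAM19, SERPINB3, MYBL1, LRRTM3, RASGRP1, POLR3G and RBPMS, which fell after both knockdowns, and SMAD3, ADGRG1 and SNORA65, which rose after both. Their effect sizes ran from 0.38 to 0.97 in the JAK3 arm and from 0.35 to 0.64 in the EZH2 arm on the log2 scale. The effect was larger in the JAK3 arm for 8 of 10, and larger in the first than in the second EZH2 pair for 9 of 10.

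ADAM19, a membrane-anchored metalloprotease that sheds cell surface proteins, had signals of 229.8 and 235.4 with JAK3 siRNA and 465.3 and 446.7 in its controls. In the EZH2 arm it read 212.8 and 218.5 with siRNA and 313.7 and 280.6 in the named controls. Its siRNA arrays were below the controls in both arms without overlap (48.3% of all genes in the JAK3 arm and 37.5% in the EZH2 arm), and the control levels themselves differed between the arms, at a mean of 456 ± 13.1 and 297.2 ± 23.4 (SD, n = 2 each). The fall was 1.96-fold with JAK3 siRNA (effect -0.97, adjusted p = 6.49e-05) and 1.38-fold with EZH2 siRNA (effect -0.46, adjusted p = 0.0275). The difference of -0.51 was not called (adjusted p = 0.0801), although its unadjusted 95% interval of -0.742 to -0.279 excludes 0. The JAK3 side was called in each of 17 alternative fits, and the EZH2 side in 8 of them. The EZH2 side was not called without a filter, with array weights or with a replicate block in both arms (limma adjusted p = 0.109, 0.131 and 0.102). Nor was it called without any 1 array of the JAK3 arm, or without an array of the first pair, where it was -0.36.

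SMAD3 carries TGF-beta receptor signals to the nucleus. Its signals were 111 and 109.7 with JAK3 siRNA against 80.65 and 79.15 in the controls, and 147.9 and 175.6 with EZH2 siRNA against 117.2 and 131.7. The arrays with siRNA were the higher ones in both arms, but the JAK3 siRNA arrays stayed below both controls of the EZH2 arm. The rises were 1.38-fold (effect 0.47, adjusted p = 0.00571) and 1.3-fold (effect 0.38, adjusted p = 0.041). They differed by 0.09, with a 95% interval of -0.123 to 0.305.

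RASGRP1 activates RAS downstream of lymphocyte receptors. It read 445.4 and 403.6 with JAK3 siRNA against 613.2 and 568.1, and 313.8 and 361 with EZH2 siRNA against 432 and 479. The 4 single differences were close together, at -0.46 and -0.49 for JAK3 siRNA and -0.46 and -0.41 for EZH2 siRNA. MYBL1, a transcription factor of the MYB family, read 105.5 and 107 against 150.9 and 148.4 in the JAK3 arm and 97.51 and 106.9 against 132 and 127.6 in the EZH2 arm. The siRNA arrays of both arms reached the same level, and the effects were -0.49 and -0.35 (adjusted p = 0.00558 and 0.050).

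POLR3G, a subunit of RNA polymerase III, fell by 0.39 and by 0.36 on the log2 scale, the closest match between the arms, with a difference of -0.03. Its signals were 210.5 and 221.1 against 282.4 and 283.2, and 233.5 and 215.1 against 314.3 and 263.8. RBPMS, an RNA-binding protein, fell more in the EZH2 arm, by 0.59 against 0.45. It read 145.7 and 149.2 against 190.8 and 212.3 with JAK3 siRNA and 117.5 and 124.7 against 187.9 and 176.7 with EZH2 siRNA, without overlap in either arm. LRRTM3, a leucine-rich repeat membrane protein, fell by 0.57 and 0.52, with single differences of -0.65, -0.48, -0.76 and -0.28. SERPINB3, a protease inhibitor with a nearly identical neighbour gene that the array may not tell apart from it, fell by 0.77 and 0.50, and its EZH2 pairs were far apart at -0.75 and -0.24.

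ADGRG1, an adhesion receptor found on cytotoxic lymphocytes, rose in both arms, from 101.1 and 100.3 to 146 and 144.2 with JAK3 siRNA and from 62.64 and 63.58 to 87.8 and 81.61 with EZH2 siRNA. The effects were 0.53 and 0.42 (adjusted p = 0.00309 and 0.0284), although the levels of the 2 arms did not meet. SNORA65, a small nucleolar RNA of the class that guides pseudouridylation of ribosomal RNA, rose by 0.38 and 0.64. Its signals were 1306 and 1378 against 984.5 and 1084, and 1445 and 1171 against 922.2 and 758.9. Such RNAs are cut from introns, so a probe set on one may also read its host transcript.

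For 8 of the 10 shared genes, all but ADAM19 and SNORA65, the 95% interval of the difference between arms held 0. The joint calls are fragile on both sides. The JAK3 effect of 8 of the 10 was called in no fit that left out 1 array of the JAK3 arm, and that of ADAM19 was called in each of these fits. With any 1 array of the JAK3 arm or of the first EZH2 pair left out, none of the 10 was still called in both arms. In these fits limma called 0 genes for EZH2 siRNA, with 1639 to 1933 genes at an unadjusted p under 0.05. Without either array of the second EZH2 pair the EZH2 effect rests on the first pair alone, with a spread from the JAK3 arm. Those fits therefore do not test the EZH2 side.

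The 3 opposed genes were SERPINB13, SULF1 and SNORA2B. SERPINB13, a cathepsin inhibitor of the serpin B family, had signals of 415.5 and 401.4 with JAK3 siRNA against 715.8 and 669.9, and of 620 and 749.5 with EZH2 siRNA against 508.3 and 536.7. It was lower than its controls on both JAK3 siRNA arrays and higher on both EZH2 siRNA arrays. The effects were -0.76 (adjusted p = 0.000309) and 0.38 (adjusted p = 0.0444), and the difference was -1.15 ± 0.11 SE (adjusted p = 0.000846).

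SULF1, a secreted enzyme that removes sulfate groups from heparan sulfate chains outside the cell, read 736.9 and 709 with JAK3 siRNA against 986.9 and 985.7. With EZH2 siRNA it read 830.7 and 732.1 against 566.6 and 586.5. It fell by 0.45 and rose by 0.44 on the log2 scale, a difference of -0.88 (adjusted p = 0.00312). The controls of the 2 arms lay further apart than either knockdown moved the signal, at 986.3 ± 0.862 and 576.6 ± 14.1 (SD, n = 2 each), and the siRNA arrays of both arms lay between them.

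SNORA2B, another small nucleolar RNA, ran the other way. It read 156.7 and 143.2 with JAK3 siRNA against 121.7 and 108.6, and 77.94 and 71.3 with EZH2 siRNA against 111.5 and 109.9. Here the controls of the 2 arms were alike, and the siRNA arrays moved up in 1 arm and down in the other. The effects were 0.38 and -0.57 and the difference was 0.95 (adjusted p = 0.00305). The difference between the arms held for all 3 genes without each array in turn. The single-arm calls were less firm. The EZH2 effect of all 3 was lost without any 1 array of the JAK3 arm or of the first EZH2 pair, and that of SERPINB13 was called in 0 of 8 fits that left out 1 array (adjusted p 0.0722 to 0.231). The JAK3 effects of SULF1 and SNORA2B were lost without any 1 array of that arm. That of SNORA2B was also lost with quantile normalization and with each array centred on its median (limma adjusted p = 0.0624 and 0.0654). SNORA2B thus left the opposed class under either scaling, and 2 of the 3 genes were kept.

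**Figure D2:**
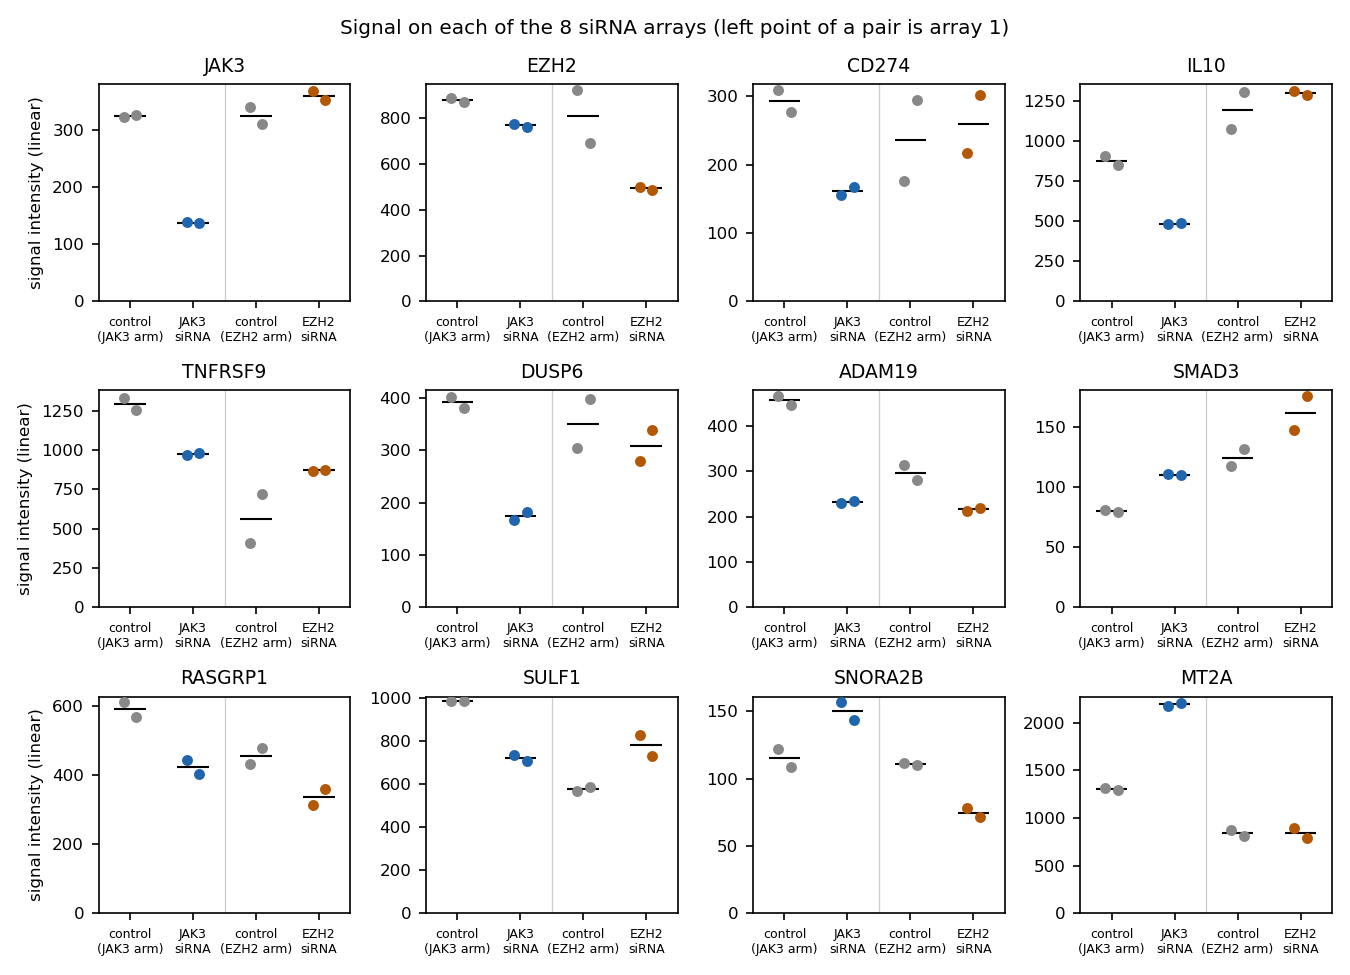
Linear signal intensity (y axis, from 0) of 12 genes is plotted for each of the 8 arrays in 4 groups, with 1 point per array and a bar at the group mean. CD274 and IL10 drop in the JAK3 arm and not in the EZH2 arm, DUSP6 drops more in the JAK3 arm, ADAM19 and RASGRP1 drop and SMAD3 rises in both, and SULF1 and SNORA2B move in opposite directions.

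The 39 one-sided JAK3 genes were 25 that fell and 14 that rose. The median size of their JAK3 effect was 0.63 and that of their EZH2 effect 0.17 on the log2 scale. The class was defined by these values, which are given as a description. The EZH2 effect leaned the other way in most of them, being above 0 in 20 of the 25 that fell and below 0 in 12 of the 14 that rose. The 95% interval of the EZH2 effect held 0 in 19 of 39. In the other 20 the unadjusted interval excluded 0, and the EZH2 effect was opposite to the JAK3 effect in 17 of these, so that one-sided means a missing call in the EZH2 arm and not a flat signal. A called difference favours such opposite signs.

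Signals of these genes in the EZH2 arm also bear on the reading. Controls of the 2 arms did not overlap in 33 of the 39, against 42.6% of all genes tested. JAK3 siRNA arrays did not overlap their own controls in 39 of 39 (48.3% of all genes), which the choice of the class favours, and EZH2 siRNA arrays did not overlap theirs in 24 (37.5%). In 29 of 39 the mean of the JAK3 siRNA arrays lay nearer to the EZH2-arm controls than to its own, against 42.49% of all genes. The cause was not tested, and choosing genes by a large distance between JAK3 siRNA and its own controls makes such a share more likely.

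CD274 encodes PD-L1, the ligand with which tumour cells restrain T cells through PD-1. Its signals were 155.5 and 167.4 with JAK3 siRNA against 309.4 and 276.9 in the controls, a 1.81-fold fall (effect -0.86, adjusted p = 0.000309). In the EZH2 arm the first pair read 216.4 with siRNA against 176.1 and the second 301.3 against 294.4. The EZH2 arrays varied more between pairs than within them, and the effect was 0.17 with a 95% interval of -0.0245 to 0.355. The difference between the arms was -1.02 ± 0.12 SE (adjusted p = 0.00299) and held without each array in turn, at -1.16 to -0.89. It was not called without the filter on dim genes (adjusted p = 0.0531). With no block for the EZH2 pairs neither the difference (adjusted p = 0.268) nor the JAK3 effect itself (adjusted p = 0.0687) was called.

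IL10, an immunosuppressive cytokine made by NK cells and a classical STAT-dependent gene, read 480 and 489.4 with JAK3 siRNA and 904.3 and 852.2 in the controls, also a 1.81-fold fall (effect -0.86, adjusted p = 0.000291). With EZH2 siRNA it read 1311 and 1286 against 1077 and 1305. The second EZH2 pair was flat at -0.02 and the first was 0.28 higher. The difference of -0.99 ± 0.12 SE (adjusted p = 0.00299) was called in every alternative fit run, including each array left out.

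The class holds DUSP6 and SPRED1, both feedback inhibitors of the RAS and ERK pathway. DUSP6, a phosphatase that inactivates ERK, read 167 and 182.4 against 402.6 and 380.7 with JAK3 siRNA, and 279.2 and 338.5 against 304.4 and 398.2 with EZH2 siRNA. The JAK3 fall was 2.24-fold (effect -1.16, adjusted p = 1.53e-05). It was lower in both EZH2 pairs too, at an effect of -0.18 whose unadjusted 95% interval of -0.346 to -0.0135 excludes 0 but which was not called, and the difference was -0.99 (adjusted p = 0.00203). SPRED1, an inhibitor of RAF activation, read 98.03 and 79.01 against 154.6 and 137.7 in the JAK3 arm, and 131.8 and 142.9 against 131.3 and 137.3 in the EZH2 arm. Its effects were -0.73 and 0.03, and the difference was -0.76 (adjusted p = 0.0438).

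Receptors for TGF-beta formed another pair. TGFBR1, the type I receptor kinase, read 347.2 and 312 with JAK3 siRNA against 464.7 and 461.7, and 309.2 and 320.3 with EZH2 siRNA against 254.9 and 292.8. TGFBR3, the coreceptor betaglycan, read 103.4 and 102 against 143.3 and 132.1, and 118.3 and 107 against 107.8 and 97.6. Both fell in the JAK3 arm, by 0.49 and 0.42, and were 0.20 and 0.13 higher without a call in the EZH2 arm. The differences were -0.70 and -0.56 (adjusted p = 0.021 and 0.0438). SMAD3, which acts below these receptors, rose in both arms as given above.

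Among the other falls of the class were SERPINE2, COL6A5 and PCDH15. SERPINE2, an inhibitor of thrombin and plasminogen activators, read 230.1 and 232 against 393.1 and 372.4 with JAK3 siRNA, and 185 and 129.1 against 145.5 and 124.7 with EZH2 siRNA. The difference was -0.93 (adjusted p = 0.00354). COL6A5, a collagen VI chain, read 523.8 and 562.5 against 902.8 and 890.3, and 581.5 and 673.7 against 528.6 and 587.6, a difference of -0.89 (adjusted p = 0.00272). PCDH15, a cadherin, read 73.96 and 74.72 against 119.1 and 121.8. It was higher in both EZH2 pairs, at 111.4 against 91.84 and 123.6 against 100.8, with an EZH2 effect of 0.29 that missed the threshold (adjusted p = 0.0677) and a difference of -0.98 (adjusted p = 0.000988).

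For FRG2C and MMP12, among the largest differences of the class, the EZH2 arm gives little information. FRG2C read 68.18 and 56.96 with JAK3 siRNA against 184.5 and 162.6, and only 38.45 to 41.86 on all 4 arrays of the EZH2 arm. The signal that fell with JAK3 siRNA was thus near the filter level of 36.66 throughout the EZH2 arm. FRG2C also has near-identical copies in the genome, so that its probe set is uncertain. MMP12, macrophage elastase, read 39.2 and 35.12 against 70.1 and 73.36 in the JAK3 arm and 27.62 to 35.77 in the EZH2 arm, below that level. The filter is on the mean signal, and MMP12 passed it only through the JAK3-arm controls, where it was high. HTR3B, a serotonin receptor subunit, fell from 141.8 and 140.6 to 76.23 and 75.84 and read 59.91 to 66.25 in the EZH2 arm. At such levels a fall with EZH2 siRNA had little room to be measured for FRG2C and MMP12.

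KDM7A, a demethylase of histone H3, read 288 and 256.9 with JAK3 siRNA against 446.3 and 423. With EZH2 siRNA it read 418.9 and 458.1 against 420.3 and 438.5, so that the 6 arrays without JAK3 siRNA were at a common level. Its difference was -0.70 (adjusted p = 0.0208). PDK1, a kinase that restrains pyruvate dehydrogenase, fell by 0.38 with JAK3 siRNA and was 0.18 higher, without a call, with EZH2 siRNA, a difference of -0.56 (adjusted p = 0.0355). EMP1, LCP2 and CXCR4 fall outside the naming rule and were chosen after their values were seen. EMP1, a membrane protein, fell by 0.91, and LCP2, an adaptor below lymphocyte receptors, by 0.81, with EZH2 effects of -0.19 and -0.26 that were not called. CXCR4, the receptor for the chemokine CXCL12, read 311.5 and 294.6 with JAK3 siRNA against 437.9 and 464.4, and 285.8 to 308.3 on the EZH2-arm arrays, the level that the JAK3 siRNA arrays reached.

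Among the 14 genes that rose in the JAK3 arm alone, MT2A had the highest signal of those described here. This metallothionein, a small protein that binds zinc and copper, read 2178 and 2204 with JAK3 siRNA against 1314 and 1292. With EZH2 siRNA it read 895.4 and 789.2 against 870.4 and 816.3, with no order between siRNA and control. The JAK3 effect was 0.75, the EZH2 effect -0.00393 and the difference 0.75 (adjusted p = 0.00494). Metallothionein genes are close paralogs, so the probe set may read several of them. MT1DP, a pseudogene of the same cluster named after its value was seen, rose with it by 0.48 in the JAK3 arm.

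TRIB1, a pseudokinase that directs protein degradation, rose from 168.4 and 179.1 to 297.8 and 285.4 with JAK3 siRNA and read 131.6 to 143.7 on the 4 EZH2-arm arrays. ANTXR2, a receptor for collagen and for anthrax toxin, rose from 309 and 309.8 to 492.7 and 494.3 and read 304.6 to 351.9 in the EZH2 arm. Its 4 EZH2-arm arrays were near the JAK3-arm controls, and the difference was 0.78 (adjusted p = 0.00412). CD38, an ectoenzyme that consumes NAD and is found on activated lymphocytes, rose from 73.7 and 81.22 to 105.7 and 105.2. It was lower in both EZH2 pairs by 0.22, without a call, and the difference was 0.67 (adjusted p = 0.0208).

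IRAG2, an endoplasmic reticulum membrane protein of lymphocytes, rose from 53.13 and 53.9 to 79.31 and 86.57 and was lower in both EZH2 pairs, at 51.23 against 67.4 and 50.61 against 58.27. Its difference of 0.93 (adjusted p = 0.00299) was the only one among the 14 rises that held without each array in turn. CLEC2D, the ligand of the NK receptor KLRB1, rose by 0.56 with a difference of 0.77 (adjusted p = 0.0335). TSHR rose from 44.18 and 47 to 73.21 and 78.18 and read 38.48 to 39.04 in the EZH2 arm, close to the filter level. MYB and ITGA4, named after their values were seen, rose by 0.40 and 0.45 and were 0.16 and 0.15 lower in the EZH2 arm without a call.

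Of the 39 differences, 11 held without each array in turn. As FRG2C and MMP12 had little room to fall in the EZH2 arm, their differences describe the JAK3 arm. The 11 were FRG2C, JAK3, MMP12, CD274, IL10, DUSP6, PCDH15, SERPINE2, COL6A5, HTR3B and IRAG2. MMP12 was tested only because its JAK3-arm controls were high, so nothing is read from its place among them. The JAK3 effect itself held in that way in 18 of 39.

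**Figure D3:**
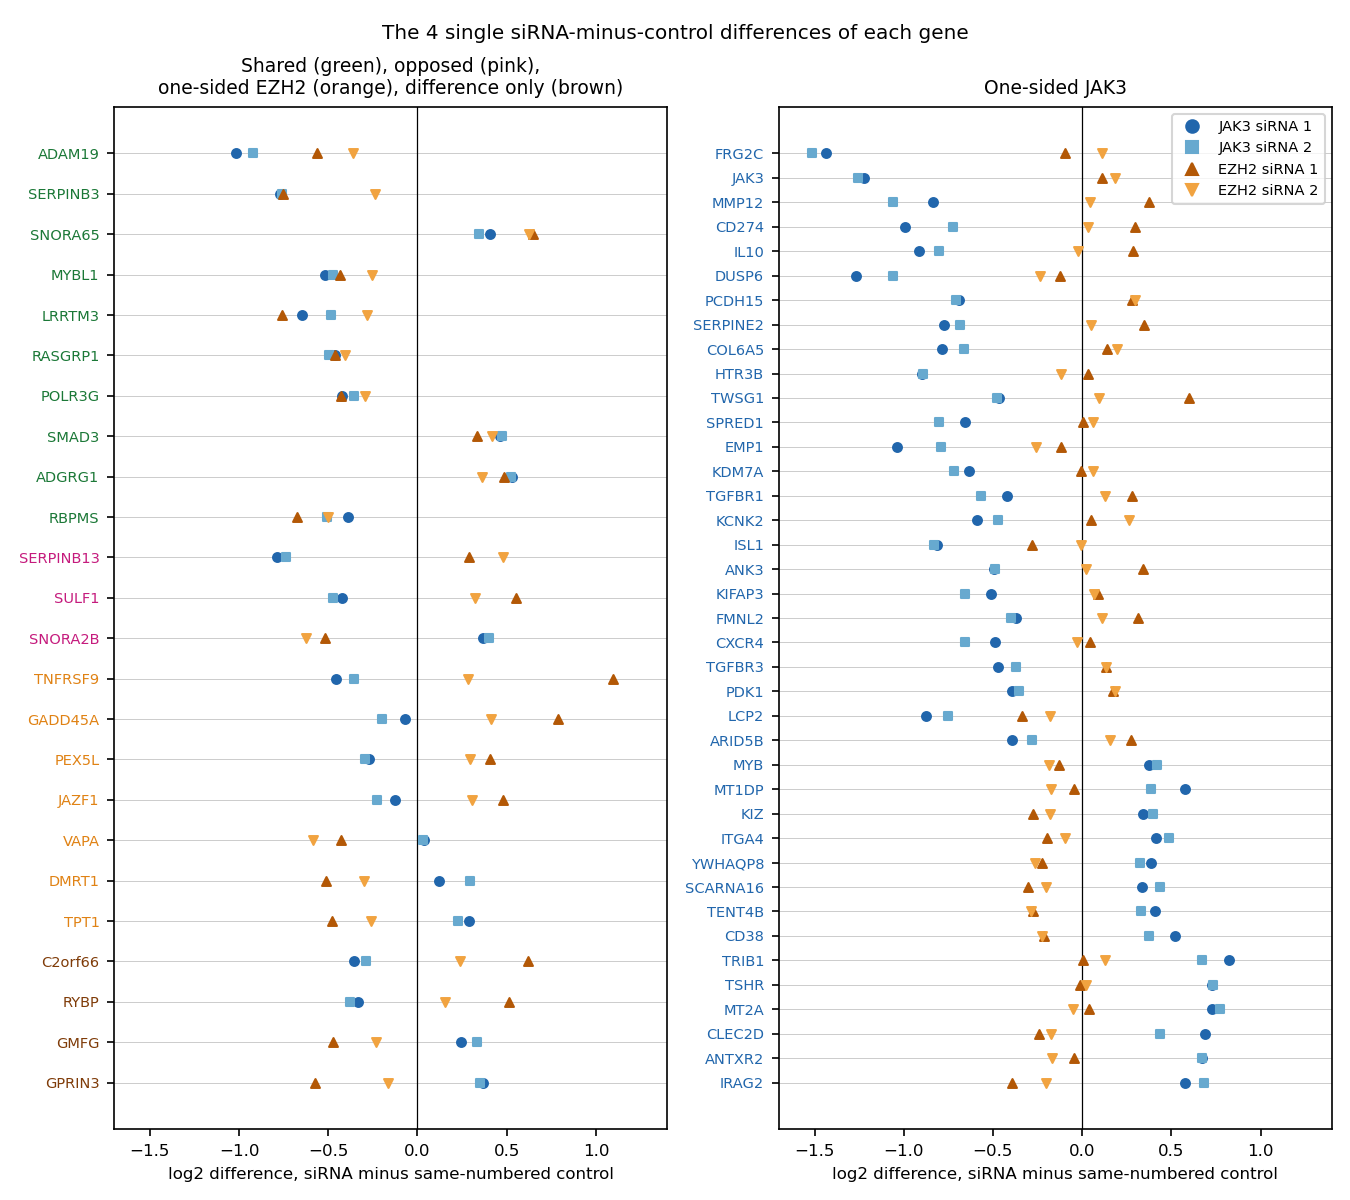
For each gene of the 5 response classes the 4 single log2 differences, siRNA minus same-numbered control, are plotted along the x axis. JAK3 siRNA 1 and 2 lie close together in most genes, whereas EZH2 siRNA 1 lies further from 0 than EZH2 siRNA 2 in TNFRSF9 and in 9 of the 10 shared genes.

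The 7 one-sided EZH2 genes were TNFRSF9, GADD45A, PEX5L and JAZF1, which rose, and VAPA, DMRT1 and TPT1, which fell. Their JAK3 effect had the opposite sign in 7 of 7, beside 41.2% of all genes, and was not called. A called difference without a JAK3 call favours opposite signs, so nothing is read from that count. TNFRSF9 is the costimulatory receptor 4-1BB, induced on activated NK and T cells. With EZH2 siRNA it read 868.1 and 875.8 against 406 and 718.6 in the named controls, and with JAK3 siRNA 970.4 and 982.5 against 1333 and 1255. The EZH2 siRNA arrays were close together and their controls were not, so that the single differences were 1.10 and 0.29, against -0.46 and -0.35 in the JAK3 arm.

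The TNFRSF9 effect was 0.69 with EZH2 siRNA (adjusted p = 0.0444) and -0.41 with JAK3 siRNA (adjusted p = 0.214). The difference was -1.10 ± 0.19 SE (adjusted p = 0.0355). With quantile normalization and with each array centred on its median, the EZH2 effect was not called (limma adjusted p = 0.0575 and 0.051). Nor was the difference (limma adjusted p = 0.0651 and 0.069). Both calls were also lost with a trended, robust eBayes and with no replicate block. They stayed with the 50th percentile filter and the mean over probe sets. Without either array of the first pair the EZH2 effect was 0.29 and the difference was -0.69. Such a fit rests on 1 EZH2 pair, with a spread from the JAK3 arm alone, so it does not test the EZH2 side. Without any 1 array of the JAK3 arm the difference was -1.14 to -1.05 and was not called.

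GADD45A, a stress-induced inhibitor of cell growth, read 182.9 and 185.5 with EZH2 siRNA against 105.8 and 139.5, and 139 and 140.7 with JAK3 siRNA against 146.1 and 161.7. Both EZH2 siRNA arrays were above all 6 others. The effects were 0.60 (adjusted p = 0.0275) and -0.14, and the difference was -0.74 (adjusted p = 0.0355). PEX5L and JAZF1, a transcriptional cofactor, rose by 0.35 and 0.39 with EZH2 siRNA, with differences of -0.63 and -0.57 (adjusted p = 0.0216 and 0.0489).

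VAPA, which tethers the endoplasmic reticulum to other membranes, read 140.3 and 138.8 with EZH2 siRNA against 189.1 and 208. On the 4 arrays of the JAK3 arm it read 201.2 to 208.4, the flattest of the 7 genes there, with an effect of 0.03. The EZH2 effect was -0.51 (adjusted p = 0.0275) and the difference 0.54 (adjusted p = 0.0489). DMRT1 fell by 0.41 and TPT1 by 0.37, and TPT1 has many processed pseudogenes that its probe set may read. None of the 7 differences held without each array in turn.

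The 4 genes called in the difference alone had moderate effects of opposite sign in the arms, none of them called. RYBP, a subunit of Polycomb repressive complex 1, read 572.3 and 551.8 against 721.6 and 716 with JAK3 siRNA and 724.8 and 653.8 against 508.7 and 586.6 with EZH2 siRNA. The siRNA arrays did not overlap their controls in either arm, and the difference was -0.69 (adjusted p = 0.0355). C2orf66 had a difference of -0.75, and GMFG, an actin regulator of blood cells, and GPRIN3 had differences of 0.64 and 0.73. None of the 4 differences held without each array in turn.

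A sorting by the 4 single differences, with no test, gave a stricter view of size. Only 12 genes (0.083%) had all 4 differences of 1 sign and at least 0.3 in size, 5 up and 7 down. They include ADAM19, SMAD3, RASGRP1, ADGRG1, SNORA65 and RBPMS of the shared class, and also ACP3, CALCOCO1, HHLA2, MAP3K5, SPC25 and PUS7. SPC25, a kinetochore subunit, had differences of -0.57, -0.61, -0.31 and -0.69, and PUS7, a pseudouridine synthase, of -0.30, -0.32, -0.32 and -0.31. In HHLA2, a B7 family ligand, they were -0.51, -0.50, -1.15 and -0.34. The same thresholds gave 2 opposed genes (0.0138%). Counting genes with both JAK3 differences at least 0.5 in size and both EZH2 differences under 0.15 gave 8 (0.0553%), and the converse gave 0.

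The EZH2 effect had the sign of the JAK3 effect in 77.03% of the 148 undetermined JAK3 genes, and 80.17% of the 116 undetermined EZH2 genes agreed likewise, beside 58.8% of all genes. A gene enters these groups only where its difference between arms was not called, which favours the same sign, so nothing is read from these shares. ARRDC3, an alpha-arrestin that was chosen after its values were seen, is 1 of them. It had an EZH2 effect of 0.81 (adjusted p = 0.0496) and single differences of 0.44, 0.61, 1.34 and 0.27. Its JAK3 effect of 0.52 was not called (adjusted p = 0.197), and the difference of -0.28 had a 95% interval of -0.802 to 0.24. Some undetermined genes may be shared and some one-sided, and these arrays do not tell which.

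Lists of pathway genes are described by their counts, and list members named below with a call in a single arm were in part chosen after their values were seen. Their background is the share of all genes called, 1.38% with JAK3 siRNA, 0.94% with EZH2 siRNA and 0.366% in the difference, so that 1 call in a list of this length is no result about the list. Of 26 genes of STAT5 response and feedback, JAK3 siRNA lowered 6 and raised 1, and EZH2 siRNA raised 1. The difference was called for 3, DUSP6, SPRED1 and TNFRSF9, all lower after JAK3 siRNA relative to EZH2 siRNA. TNFRSF9 is a one-sided EZH2 gene whose JAK3 effect was not called. The list median was -0.18 with JAK3 siRNA and 0.00275 with EZH2 siRNA, beside -0.01 and -0.00423 over all genes. CISH read 241.2 and 249 with JAK3 siRNA against 349.8 and 348.5, and 269.6 and 288.7 with EZH2 siRNA against 372 and 319.3. The effects were -0.51 (adjusted p = 0.00964) and -0.31 (adjusted p = 0.0993). SOCS1, OSM and BCL2L1, a survival gene, fell by 0.50, 0.69 and 0.44 with JAK3 siRNA, with EZH2 effects of -0.21, -0.18 and -0.05 that were not called. BCL6, a repressor that STAT5 holds down, rose from 118.4 and 101.2 to 196.7 and 197.3, while its EZH2 pairs were at 1.10 and 0.07. For CISH, SOCS1, OSM, BCL2L1 and BCL6 the difference between arms was not called, so that they are undetermined and not one-sided.

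The other signalling lists are read against the same shares. Lists overlap, and DUSP6, SPRED1, OSM and TNFRSF9 are also in the STAT5 list, so their calls below are not separate results. Of 18 ERK feedback genes, JAK3 siRNA lowered DUSP6 and SPRED1 and raised DUSP4, EZH2 siRNA changed 0, and both falls were called in the difference. Of 14 checkpoint receptors and ligands, JAK3 siRNA lowered CD274 and HAVCR2, EZH2 siRNA lowered HHLA2, and CD274 alone was called in the difference. Of 18 secreted cytokines, IL10 and OSM fell with JAK3 siRNA and 0 moved with EZH2 siRNA. Of 21 TGF-beta and SMAD genes, 2 fell and 1 rose with JAK3 siRNA, and SMAD3 rose with EZH2 siRNA. Of 19 ADAM and matrix proteases, ADAM19 and MMP12 fell with JAK3 siRNA and ADAM19 with EZH2 siRNA. MMP12 was tested only through its JAK3-arm controls, as given above. TNFRSF9 was the only 1 of 19 TNF receptor family genes with a call. Of 9 JAK and STAT genes only JAK3 was called, and of 14 cytokine receptors none was called in either arm or in the difference.

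EZH2 was the only 1 called of 14 genes for the PRC2 complex and the enzymes of its mark. Of 20 genes of NK identity and cytotoxicity, JAK3 siRNA lowered NCAM1 and KLRD1, by 0.36 and 0.47, and EZH2 siRNA changed 0, beside 1.38% and 0.94% of all genes. Of 17 interferon-stimulated genes none was called, and of 15 NF-kB genes ICAM1 alone rose, with EZH2 siRNA. None of the tested markers of B cells, monocytes, T cells or epithelium and fibroblasts was called in either arm or in the difference.

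Genes of the cell cycle and of ribosome assembly were often below their controls in both arms. All 4 single differences were below 0 in 23 of 41 DNA replication genes (56.1%), 21 of 30 mitosis genes (70%) and 18 of 25 ribosome biogenesis genes (72%), beside 13.97% of all genes tested. The list medians were -0.12, -0.11 and -0.19 with JAK3 siRNA and -0.24, -0.23 and -0.29 with EZH2 siRNA. EZH2 siRNA lowered 1 of the 41, 2 of the 30 and 1 of the 25 genes, beside 0.567% of all genes called lower. JAK3 siRNA lowered 1 of the 30 mitosis genes and changed 0 in the other lists, beside 0.76% of all genes called lower. The EZH2 calls were CDC6, which loads the replicative helicase, CCNA2, BUB1 and NOP16, with effects of -0.43, -0.39, -0.35 and -0.47. The JAK3 call was SPC25 at -0.59. The difference between the arms was called for none of these genes. Most of the EZH2 shift came from the first pair, where the medians were -0.32, -0.31 and -0.39, against -0.09, -0.17 and -0.08 in the second. These shares depend little on scaling, at 53.66%, 60% and 60% after quantile normalization (12.38% of all genes) and 63.41%, 73.33% and 76% with the arrays centred on their medians (18.9%).

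**Figure D4:**
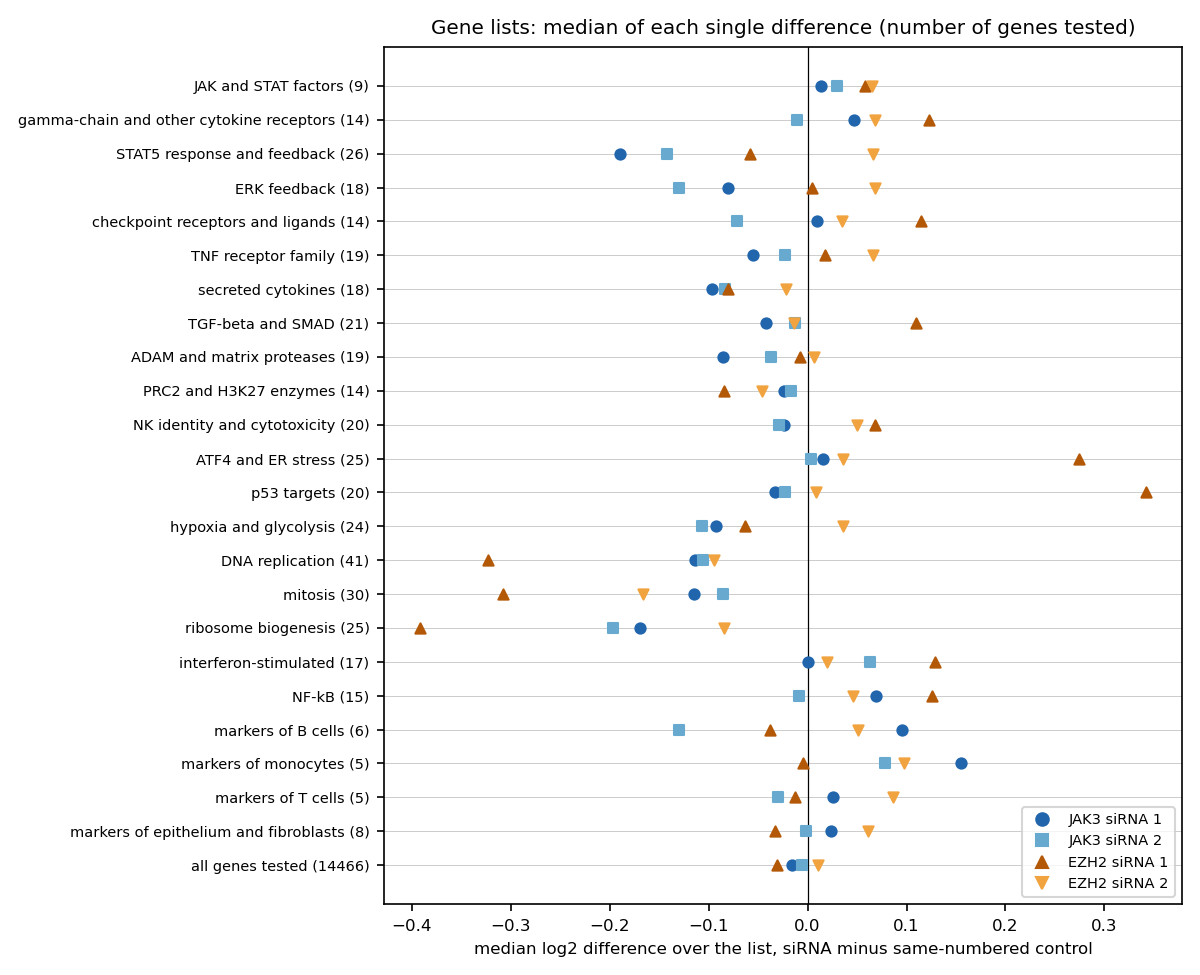
The median log2 difference of each gene list (x axis) is plotted for the 4 single differences, with the number of genes tested in brackets. DNA replication, mitosis and ribosome biogenesis lie below 0 for all 4, with EZH2 siRNA 1 lowest, and ATF4 and p53 genes lie clearly above 0 for EZH2 siRNA 1 alone.

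Stress gene lists differed between the 2 EZH2 pairs. Of 25 ATF4 and ER stress genes, EZH2 siRNA raised DDIT3, PSAT1 and WARS1 and JAK3 siRNA raised HERPUD1 and SLC1A4, beside 0.94% and 1.38% of all genes called. The list median was 0.27 in the first EZH2 pair and 0.04 in the second. Of 20 p53 targets GADD45A alone was called, and the list medians were 0.34 and 0.01. Of 24 hypoxia and glycolysis genes, HK2, PDK1 and P4HA1 fell with JAK3 siRNA and PGK1 with EZH2 siRNA, beside 1.38% and 0.94% of all genes.

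Promoters are shown for the 3 of the 5 marker genes of this comparison that have a single start in the RefSeq table (GRCh38.p14), 1 each of the one-sided JAK3, one-sided EZH2 and shared classes. Each run holds the 250 bases before the start, 5′ to 3′ on the strand of the gene, with matches to the searched motifs in capitals. The motifs were TTCNNNGAA, to which STAT factors bind, TGANTCA for AP-1, and TGATGCAA for ATF4, on both strands.
CD274 (chr9:5450292-5450541, plus strand): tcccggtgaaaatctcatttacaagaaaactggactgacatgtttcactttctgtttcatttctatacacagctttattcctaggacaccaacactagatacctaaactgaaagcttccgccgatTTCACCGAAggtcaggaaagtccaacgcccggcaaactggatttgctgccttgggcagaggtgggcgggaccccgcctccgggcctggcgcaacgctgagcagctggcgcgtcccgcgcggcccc
TNFRSF9 (chr1:7940840-7941089, minus strand): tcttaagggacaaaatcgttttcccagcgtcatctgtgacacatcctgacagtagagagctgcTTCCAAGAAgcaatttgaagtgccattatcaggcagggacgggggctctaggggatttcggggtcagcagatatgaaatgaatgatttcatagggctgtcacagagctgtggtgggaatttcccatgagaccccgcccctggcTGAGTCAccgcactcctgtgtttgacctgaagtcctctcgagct
ADAM19 (chr5:157575776-157576025, minus strand): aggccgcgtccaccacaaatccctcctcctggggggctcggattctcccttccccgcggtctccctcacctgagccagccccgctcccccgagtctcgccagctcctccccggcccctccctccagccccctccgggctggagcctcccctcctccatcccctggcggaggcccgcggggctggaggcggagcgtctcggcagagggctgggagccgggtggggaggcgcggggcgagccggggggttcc

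CD274 holds 1 STAT match, TTCACCGAA, at -125 to -117 from the start. TNFRSF9 holds the STAT match TTCCAAGAA at -187 to -179 and the AP-1 match TGAGTCA at -44 to -38, and ADAM19 holds none of the 3 motifs in this window. A match is a description of letters and not a bound site. The STAT motif was in 6.57% of all 35116 promoters in the table and in 5.39% of the 16092 promoters of the genes tested, of which 11294 of 14466 matched. It was in 6 of 58 promoters of one-sided JAK3 genes (10.3%, 33 of 39 genes matched), 1 of 7 of one-sided EZH2 genes (14.3%, 5 of 7 matched) and 4 of 13 of shared genes (30.8%, 6 of 10 matched). AP-1 matches were in 8.62%, 14.3% and 15.4% of these, against 4.85% for the genes tested. The ATF4 motif was in 1 promoter of a one-sided JAK3 gene and in none of the other 2 classes. Promoters of a gene overlap and share sequence, and no test was made.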

How the data were processed

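RNA of NKYS cells was labelled with Nugen kits from 100 ng per sample and hybridised to whole-transcript arrays, per the labels' protocols. The authors deposited linear signal intensity for 28869 probe sets, and background correction and normalization are not given in the sources used here. Probe sets with 1 gene symbol in the platform annotation (19310, with 1752 naming several and 7807 none) were kept, with the brightest per gene. Symbols were set against RefSeq (19279 matched, 0 changed).

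The 8 siRNA arrays entered a single limma fit (limma 3.58.1, R 4.3.3) of log2 intensity with the EZH2 pair as a block, since the titles name the control of each EZH2 array, and no block in the JAK3 arm. There were 3 residual degrees of freedom, p-values are two-sided, and Benjamini-Hochberg adjustment ran over 14466 genes. The spread is shared by both arms, and the JAK3 arm, which has no block, supplies most of its degrees of freedom. The log2 difference of replicates had an SD over genes of 0.106 with JAK3 siRNA and 0.1014 in its controls. With EZH2 siRNA it was 0.1422, and 0.1676 in the controls of that arm. The shared spread may therefore be too small for EZH2 effects. Genes whose mean lay under the 30th percentile of signal were left out, except JAK3 and EZH2. With 2 arrays per group their number limits the precision. Deviations of same-pair EZH2 arrays correlated at r = -0.086.

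Named genes were JAK3, EZH2 and 5 given markers, all shared and opposed genes, the 10 largest differences each way of the other classes, the top 6 each way by the 4 single differences, and up to 3 members per list. The members and the 23 lists were chosen with earlier results of these data known. On simulated data (14466 genes, changes of 1 on the log2 scale) the right class was found for 96% of shared, 98% of opposed and 88% of each kind of one-sided genes. Median effects in the real data were smaller, at 0.49 (JAK3) and 0.45 (EZH2) in shared genes. In one-sided EZH2 genes the median EZH2 effect was 0.41. The simulated shares do not apply to effects of that size, and the simulation gave both arms the same spread per gene. The 9 plasmid arrays were not analysed here beyond choosing the probe set.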

Additional observations from a re-analysis of the deposited data

How the results depend on the processing

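Quantile normalization, centring, the 50th percentile filter, the mean over probe sets and a trended, robust eBayes changed the number of JAK3 calls less than that of EZH2 calls. Of the 7 one-sided EZH2 genes, 1 was kept with quantile normalization and 2 with centring. Quantile normalization gave 56 EZH2 calls, 5 shared, 2 one-sided EZH2, 4 genes opposed by the 4 single differences and 2 with EZH2 alone. Centring gave 4 one-sided EZH2 genes, 1 opposed and 2 EZH2 alone by the 4 differences, and moved the split of EZH2 calls from 54 higher and 82 lower to 31 and 161, and that of the difference from 20 and 33 to 19 and 19. The trended, robust eBayes gave 230 EZH2 calls, 12 one-sided EZH2 and 2 in the difference alone. Fits of only the 4 arrays of an arm gave 517 JAK3 and 217 EZH2 calls.

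Other settings took the EZH2 calls away. Without a filter there were 94 JAK3, 0 EZH2 and 15 difference calls, with 0 shared, 0 opposed, 14 one-sided JAK3, 0 one-sided EZH2 and 1 in the difference alone. Array weights gave 699, 0 shared, 0 opposed, 0 one-sided EZH2, 2 in the difference alone and 0 EZH2 calls. At an unadjusted p under 0.05 limma had 2511 and 1255 EZH2 genes in these fits. A replicate block in both arms, where the JAK3 numbers are shared only as numbers (correlation of deviations 0.1513), gave 104 JAK3, 0 EZH2 (2009 unadjusted) and 19 difference calls, with 0 shared, 0 opposed, 18 one-sided JAK3, 0 one-sided EZH2 and 1 in the difference alone. With no replicate block the counts were 125, 20 and 29, with 3 shared, 0 opposed, 1 one-sided EZH2 and 2 in the difference alone.

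Leaving out each array gave 33 to 517 JAK3 calls, 0 to 1511 EZH2 calls and 14 to 323 difference calls. Shared genes ran from 0 to 185, opposed from 0 to 30, one-sided JAK3 from 12 to 59, one-sided EZH2 from 0 to 219 and difference alone from 2 to 8. The upper EZH2 counts came without an array of the second pair. As each EZH2 pair is a block, leaving out 1 of its arrays takes the whole pair out of the EZH2 effect. Such a fit rests on 1 EZH2 pair, and its spread comes from the JAK3 arm alone. Its EZH2 and difference counts therefore do not rest on EZH2 replication. Thresholds of 0.2, 0.4 and 0.2 for the 4 single differences gave 78 shared, 15 opposed, 31 JAK3 alone and 11 EZH2 alone, and crossing the JAK3 numbers gave 1 opposed. Effects that were not called in the reported fit were not refitted gene by gene, and of the called effects of named genes that were, 0 reversed. Many of these settings leave the size of an effect unchanged, so that its sign could not reverse. Outside the fits that left out an array, the call was lost in 309 of 1218 comparisons of an effect with a setting.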
